A study of Mus musculus with 2 samples.

Results

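The 35 genes described here are the enzymes of glycolysis, the carriers and kinases that set where its carbon goes, the oxygen-sensing machinery built on the transcription factor subunit HIF-1 alpha, and target genes of that factor. They were chosen by symbol from the 32285 genes counted in single cells of mouse maxillary periodontium, the gum, ligament and bone around the upper teeth, and all 35 were found. The cells came from 2 droplet libraries titled RP and 377P, in a series whose title names periodontitis in diabetes and its resolution. The labels used here give both libraries the same tissue and no strain, genotype, age, treatment or number of animals, and they leave the titles unexplained, so the libraries go by their titles and neither stands as a control. Each title has 1 library, so a difference between RP and 377P has no replicate behind it and no p-value is given.

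Glycolysis splits glucose into pyruvate: its preparatory enzymes spend ATP to phosphorylate and cleave the sugar, and its payoff enzymes win ATP back, after which lactate dehydrogenase can turn pyruvate into lactate for export. When oxygen is short, prolyl hydroxylases stop marking HIF-1 alpha for destruction, and the stabilised protein binds short ACGTG or GCGTG motifs and raises transcription of most glycolytic genes along with genes for autophagy of mitochondria, collagen hydroxylation and pH control. In periodontium this pathway is known from wounds, inflamed gum and the poorly perfused pocket beside an affected tooth. HIF-1 alpha itself is controlled largely at the protein level, which RNA counts do not show.

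Promoters of 4 of the genes named below are shown first, as examples. RefSeq promoter windows, 250 bases before to 50 bases after a start on GRCm38.p6, were matched for 32 of the 35 genes (none for Bnip3l, Ndrg1 and Ero1l), with 45 windows in all. The 4 sequences below run 5′ to 3′ on the strand of the gene, and capitals mark ACGTG or GCGTG on either strand, so that CACGT and CACGC are their reverse complements. Overlapping matches were allowed, and CACGTG holds a match on both strands. Hk2 encodes the inducible hexokinase, and its window lies on the minus strand at chr6:82774405-82774704. The Pgk1 window, of phosphoglycerate kinase, lies on the plus strand at chrX:106186850-106187149. Pfkfb3 encodes a kinase that makes the activator of phosphofructokinase, and the window shown is on the minus strand at chr2:11502041-11502340. Egln3 encodes a prolyl hydroxylase, with its window on the minus strand at chr12:54203825-54204124.
Hk2: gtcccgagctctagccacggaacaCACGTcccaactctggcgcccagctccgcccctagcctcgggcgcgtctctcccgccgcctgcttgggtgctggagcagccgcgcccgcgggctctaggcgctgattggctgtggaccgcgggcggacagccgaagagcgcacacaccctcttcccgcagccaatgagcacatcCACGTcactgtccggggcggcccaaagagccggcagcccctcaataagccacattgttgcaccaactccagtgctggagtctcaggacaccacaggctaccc
Pgk1: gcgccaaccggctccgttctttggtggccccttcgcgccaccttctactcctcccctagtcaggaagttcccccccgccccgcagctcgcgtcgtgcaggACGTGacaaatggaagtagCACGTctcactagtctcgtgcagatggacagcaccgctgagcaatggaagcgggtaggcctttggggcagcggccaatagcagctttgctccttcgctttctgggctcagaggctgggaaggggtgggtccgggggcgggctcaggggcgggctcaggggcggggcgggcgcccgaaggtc
Pfkfb3: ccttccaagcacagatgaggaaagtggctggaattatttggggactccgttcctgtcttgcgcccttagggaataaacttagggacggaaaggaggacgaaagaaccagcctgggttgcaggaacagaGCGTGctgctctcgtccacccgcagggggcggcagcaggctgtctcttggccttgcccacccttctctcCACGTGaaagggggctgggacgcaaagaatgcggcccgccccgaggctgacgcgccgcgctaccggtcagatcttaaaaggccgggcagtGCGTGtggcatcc
Egln3: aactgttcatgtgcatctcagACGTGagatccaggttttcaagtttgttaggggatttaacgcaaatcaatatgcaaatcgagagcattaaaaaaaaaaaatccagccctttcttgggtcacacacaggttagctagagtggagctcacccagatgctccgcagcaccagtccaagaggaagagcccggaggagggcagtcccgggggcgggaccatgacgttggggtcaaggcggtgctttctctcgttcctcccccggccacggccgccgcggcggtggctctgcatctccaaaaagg
At least 1 of the motifs was present in 37 of the 45 windows (82.2%), against 43.8% of all 32851 RefSeq windows of the same length. ACGTG alone was present in 25 of 45 (55.6%), against 19.6% of all windows. All 4 windows shown hold ACGTG, so they do not stand for the 45. Among those not shown, the Eno2 window held 0 motifs and the other Pfkfb3 window 1. The windows were not matched for base composition, and a match marks letters in the window and no measured binding.

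Quality filters kept 16721 cells of RP and 14515 of 377P, and these were assigned to classes by marker genes that include none of the 35. Levels are unique molecular identifiers (UMIs, 1 per captured mRNA) of a gene summed over a class, per 1000000 UMIs of that class (CPM), and bracketed ranges are exact 95% Poisson intervals that cover counting error only. A total of 12 classes had at least 50 cells in both libraries, and 8 of these classes had at least 200 cells in each library and were compared. All own markers of the 12 classes had UMIs in both libraries, which gating on those markers makes likely. In neutrophils their own markers made up 624 of 10000 UMIs in RP and 1196 in 377P. In all 12 classes RP had fewer UMIs per cell and a larger mitochondrial share: the class medians ran from 1911 to 11004 UMIs in RP and from 2608 to 16996.5 in 377P, and the mitochondrial share from 2.16% to 4.47% in RP and from 1.31% to 3.07% in 377P. RNA of gland secretory genes, which free RNA can carry into other droplets, made up 1.06% to 2.18% of UMIs in RP and 0.207% to 0.442% in 377P, outside the gland and neutrophil classes. Neutrophils had 3.15% in RP and 1.26% in 377P, but the gland list holds Ltf, which is also a marker of the neutrophil class. A total of 82 barcodes occurred in both libraries. Depth and mitochondrial share differed in the same direction in all 12 classes. The gland share did so too, except in gland or respiratory epithelium, where it was 27.1% in RP and 34.3% in 377P. The part of these differences in the ratios between the libraries was not tested.

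The level of most of the genes followed the cell class. The class with the highest level was the same in both libraries for 20 of the 35 genes, and the order of the 12 classes correlated between the libraries with a median Spearman coefficient of 0.846, with Car9 lowest (0.365) and Aldoa and Ndrg1 highest (0.993). These coefficients describe 12 classes each, and the classes of 1 library share its depth and free RNA. Summed over the glycolytic enzymes, hexokinases to Ldha, the level was 2906 CPM in RP and 3044 CPM in 377P in suprabasal keratinocytes, the differentiating layers of the gum epithelium. That was the highest class in both libraries. Basal keratinocytes had 2695 and 2750 CPM in RP and 377P, monocytes or macrophages 2406 and 2856 CPM, and neutrophils 2232 and 2908 CPM, so that basal keratinocytes were second in RP and neutrophils second in 377P. Schwann cells had the lowest sum in RP (1374 CPM, against 1496 CPM in 377P), and B cells the lowest in 377P (1406 CPM, against 1381 CPM in RP). The summed level of the 10 hypoxia targets ran differently: it was highest in Schwann cells, with 1486 CPM in RP and 1459 CPM in 377P, and in lymphatic endothelial cells, with 1029 and 832 CPM in RP and 377P. B cells were lowest for this sum as well, with 218 CPM in RP and 234 CPM in 377P. Ndrg1 alone gave most of the sum in Schwann cells, with 1096 CPM in RP and 1082 CPM in 377P. It also gave most of it in lymphatic endothelial cells, with 676 and 499 CPM in RP and 377P. The high sums in those classes are therefore mostly Ndrg1, and the other targets were not summed without it. In RP no other target was highest in Schwann cells, and in 377P only Bnip3 and Bnip3l were.

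**Figure D1:**
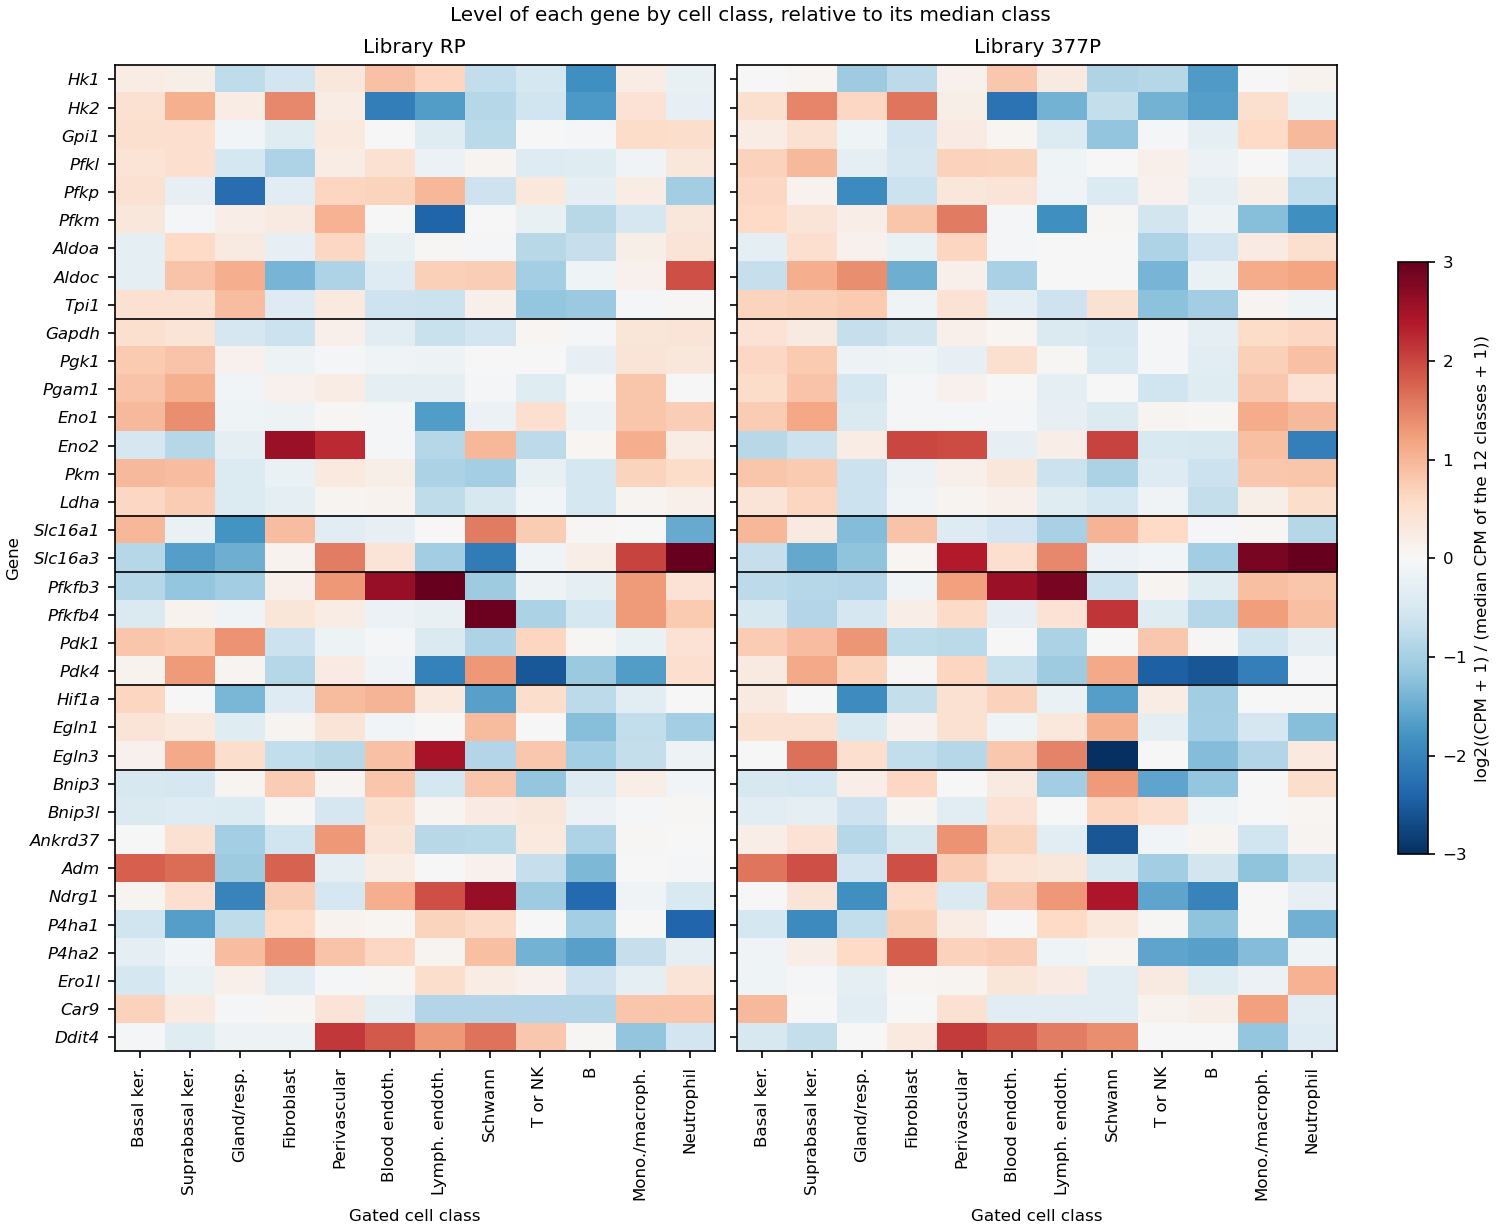
Level of each of the 35 genes in 12 gated cell classes (columns) in RP (left panel) and 377P (right panel), as the log2 of CPM plus 1 over the median of the 12 classes plus 1, with black lines between the functional groups. Ndrg1 and Pfkfb4 stand out in Schwann cells, Pfkfb3 in endothelial cells, Slc16a3 in neutrophils and Eno2 in fibroblasts and perivascular cells, in both panels.

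RNA of the hexokinases, the enzymes at the entry of glucose into the pathway, differed between cell classes. Hk2 was highest in fibroblasts, at 273 CPM (266 to 280) in RP and 254 CPM (247 to 261) in 377P, and lowest in blood endothelial cells, at 22.9 CPM (19.3 to 27.1) and 17.1 CPM (13.1 to 22.02) in RP and 377P. Hk1, the constitutive hexokinase, was highest in those same blood endothelial cells, at 123 CPM (114 to 132) in RP and 115 CPM (104 to 127) in 377P, and lowest in B cells, at 17.7 and 19.5 CPM in RP and 377P. The ratio of Hk2 to Hk1 UMIs was 6.20 in fibroblasts of RP (5.78 to 6.66) and 6.78 in fibroblasts of 377P (6.28 to 7.34). In blood endothelial cells it was 0.186 (0.155 to 0.224) in RP and 0.149 (0.112 to 0.195) in 377P, and in lymphatic endothelial cells 0.289 in RP and 0.387 in 377P. The 2 endothelial classes were the only ones of the 12 with a ratio below 1 in both libraries. Ratios of a gene pair are read between classes only, since capture can differ between genes.

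Among the other preparatory enzymes, the isomerase Gpi1 was highest in myeloid cells: monocytes or macrophages led in RP with 161 CPM, and neutrophils in 377P with 263 CPM. Of the phosphofructokinases, which commit the sugar to glycolysis, the liver-type subunit Pfkl was highest in suprabasal keratinocytes, with 38.1 CPM in RP and 47.7 CPM in 377P. The platelet-type Pfkp was highest in lymphatic endothelial cells in RP (172 CPM) and in basal keratinocytes in 377P (156 CPM), and lowest in gland or respiratory epithelium in both, at 16.7 and 26.3 CPM in RP and 377P. The muscle-type Pfkm stayed low, with its highest level in perivascular cells, a class that holds smooth muscle: 9.94 CPM in RP and 9.65 CPM in 377P. The aldolase Aldoa was highest in perivascular cells too, at 327 and 322 CPM in RP and 377P, and lowest in T or NK cells, at 118 and 109 CPM. Its relative Aldoc reached at most 11.4 CPM in RP, in neutrophils, and 8.50 CPM in 377P, in gland or respiratory epithelium. The triose isomerase Tpi1 was highest in gland or respiratory epithelium, with 240 CPM in RP and 188 CPM in 377P, and lowest in T or NK cells, with 55.0 and 45.7 CPM.

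The payoff enzymes apart from Eno2, counted here from Gapdh to Pkm together with Ldha, were highest in keratinocytes or myeloid cells. Pgam1 (phosphoglycerate mutase), Eno1 (the ubiquitous enolase) and Ldha (lactate dehydrogenase A) were highest in suprabasal keratinocytes of both libraries. Their levels there were 213 and 226 CPM in RP and 377P for Pgam1, 79.4 and 89.1 CPM for Eno1, and 328 and 332 CPM for Ldha. Pgk1 was also highest there in RP (156 CPM), where neutrophils led in 377P (169 CPM). Gapdh, the dehydrogenase at the centre of the pathway, was highest in basal keratinocytes in RP (612 CPM) and in neutrophils in 377P (783 CPM). The pyruvate kinase gene Pkm reached 523 CPM in basal keratinocytes of RP and 522 CPM in neutrophils of 377P, where basal keratinocytes were next with 521 CPM. Across the 12 classes, Pkm and Ldha tracked the summed level of all the other enzymes most closely in both libraries, with Spearman coefficients of 0.923 and 0.888 for Pkm in RP and 377P and of 0.881 and 0.916 for Ldha. Eno2, the neuron-type enolase, did not: its coefficients were -0.04 in RP and -0.41 in 377P.

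Eno2 was 1 of 4 genes whose highest class lay at least 5-fold above its median class in both libraries, in 377P only by the thinly counted Schwann class (5.02-fold). It was highest in RP in fibroblasts (21.9 CPM, 19.96 to 24.1) and perivascular cells (16.9 CPM, 13.2 to 21.2). In 377P the level was 15.8 CPM in fibroblasts (14.1 to 17.6), 15.2 CPM in perivascular cells (10.9 to 20.6) and 15.9 CPM in Schwann cells, where it rested on 6 UMIs (5.84 to 34.6). Schwann cells of RP had 6.59 CPM from 3 UMIs (1.36 to 19.2). Monocytes or macrophages had 7.05 CPM in RP and 6.81 CPM in 377P. In the other 8 classes Eno2 lay between 1.08 and 3.42 CPM in RP and between 0 and 3.86 CPM in 377P. The ratio of Eno2 to Eno1 UMIs in fibroblasts was 0.829 in RP (0.730 to 0.941) and 0.408 in 377P (0.357 to 0.467), and in suprabasal keratinocytes it was 0.0139 and 0.0185 in RP and 377P.

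The 2 lactate carriers were highest in different cell types. Slc16a3 encodes MCT4, which exports lactate from highly glycolytic cells, and was highest in neutrophils, at 59.3 CPM (44.3 to 77.8) in RP and 85.2 CPM (62.8 to 113) in 377P. It was next highest in monocytes or macrophages, at 16.4 CPM in RP (12.6 to 20.9) and 28.7 CPM in 377P (21.9 to 37.0), and then in perivascular cells, at 11.3 and 20.4 CPM in RP and 377P. Lymphatic endothelial cells had 1.08 CPM in RP and 10.2 CPM in 377P, from 1 and 8 UMIs. The other 8 classes lay between 0 and 4.59 CPM in RP and between 0.412 and 4.78 CPM in 377P. Schwann cells of RP had 0 UMIs, which allows a level of up to 8.10 CPM as the upper 95% bound, and the 377P Schwann cells had 1. Slc16a1 encodes MCT1, a carrier that works in both directions, and was highest in Schwann cells (54.9 and 47.7 CPM in RP and 377P) and next in basal keratinocytes (37.4 and 47.3 CPM). The ratio of Slc16a3 to Slc16a1 was 10.4 in neutrophils of RP (4.18 to 33.4) and 6.86 in neutrophils of 377P (3.08 to 17.96), against 0.0367 and 0.0328 in basal keratinocytes of RP and 377P.

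**Figure D2:**
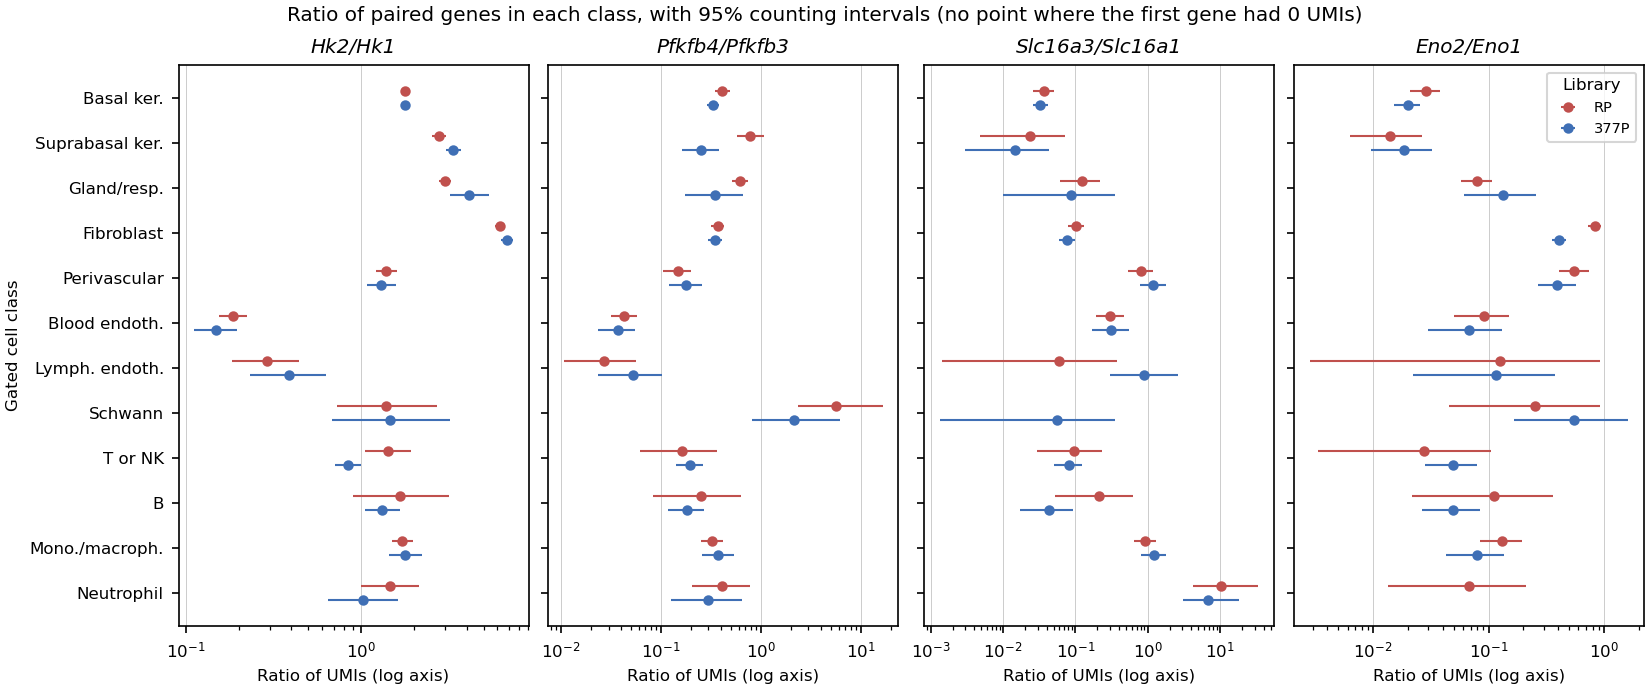
Ratio of UMIs of 4 gene pairs in 12 gated classes on log axes, with RP in red above 377P in blue and bars for the 95% counting interval. Hk2 over Hk1 is lowest in the 2 endothelial classes, Pfkfb4 over Pfkfb3 highest in Schwann cells and Slc16a3 over Slc16a1 highest in neutrophils, in both libraries; a class whose first gene had 0 UMIs has no point.

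Of the regulatory kinases, Pfkfb3 was a gene of endothelium. Lymphatic endothelial cells had 277 CPM (244 to 313) in RP and 218 CPM (187 to 253) in 377P, and blood endothelial cells had 179 CPM (168 to 190) and 182 CPM (168 to 197) in RP and 377P. Perivascular cells followed at 72.1 and 70.1 CPM in RP and 377P, monocytes or macrophages at 70.3 and 56.0 CPM, neutrophils at 38.8 and 53.3 CPM and fibroblasts at 31.8 and 27.4 CPM. T or NK cells had 25.4 and 31.3 CPM and B cells 23.6 and 22.4 CPM in RP and 377P. The epithelial classes and Schwann cells were lowest, between 12.2 and 15.4 CPM in RP and between 15.5 and 18.6 CPM in 377P. Its level in lymphatic endothelium was 9.68 times its median class in RP and 7.44 times in 377P.

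Pfkfb4, the sister kinase, was instead highest in Schwann cells, at 74.6 CPM (51.7 to 104) in RP and 39.8 CPM (22.3 to 65.6) in 377P. Monocytes or macrophages were next with 22.9 and 20.9 CPM in RP and 377P. The ratio of Pfkfb4 to Pfkfb3 was 5.67 in Schwann cells of RP (2.35 to 16.5) and 2.14 in those of 377P (0.822 to 6.21), and 0.0430 and 0.0370 in blood endothelial cells of RP and 377P. Pdk1 and Pdk4 encode kinases that inhibit pyruvate dehydrogenase in the mitochondrion. Pdk1 was highest in gland or respiratory epithelium, with 35.7 CPM in RP and 34.4 CPM in 377P. Pdk4, which fasting and fatty acids are known to induce, was highest in Schwann cells in RP (30.7 CPM, with suprabasal keratinocytes next at 30.0 CPM) and in suprabasal keratinocytes in 377P (21.4 CPM, with Schwann cells next at 21.2 CPM). It was lowest in lymphocytes: in T or NK cells in RP (1.18 CPM) and in B cells in 377P (0.705 CPM).

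In the oxygen-sensing group, Hif1a was highest in the vascular classes. Blood endothelial cells had 476 CPM (458 to 493) in RP and 488 CPM (465 to 511) in 377P, and perivascular cells 446 and 417 CPM in RP and 377P. Schwann cells were lowest in RP (74.6 CPM), and gland or respiratory epithelium in 377P (81.5 CPM). Egln1 encodes the main hydroxylase that marks HIF-1 alpha, and was highest in Schwann cells, with 92.2 CPM in RP and 111 CPM in 377P. Egln3, a hydroxylase gene that hypoxia itself induces, had another pattern: lymphatic endothelial cells had 53.9 CPM in RP (40 to 71.1) and 34.3 CPM in 377P (22.6 to 49.8), and suprabasal keratinocytes had 21.01 CPM (17.98 to 24.4) and 38.3 CPM (34.0 to 43.1) in RP and 377P. These were the 2 highest classes of Egln3 in both libraries, in opposite order. Schwann cells had 2 Egln3 UMIs in RP and 0 in 377P.

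Among the hypoxia targets, Ndrg1, a stress-response gene that myelinating Schwann cells need, separated the classes clearly. Schwann cells had 1096 CPM (1002 to 1196) in RP and 1082 CPM (980 to 1192) in 377P. Lymphatic endothelial cells had 676 CPM (624 to 731) and 499 CPM (451 to 550) in RP and 377P, and blood endothelial cells 376 and 356 CPM. Fibroblasts had 298 and 300 CPM in RP and 377P, suprabasal keratinocytes 253 and 264 CPM, and basal keratinocytes 188 and 202 CPM. Monocytes or macrophages had 166 and 202 CPM in RP and 377P, neutrophils 129 and 170 CPM and perivascular cells 126 and 149 CPM. T or NK cells had 83.4 and 67.2 CPM in RP and 377P, gland or respiratory epithelium 43.6 and 55.6 CPM, and B cells were lowest with 34.4 and 49.2 CPM. The Schwann class lay 6.19 times above the median class in RP and 5.36 times in 377P.

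The other targets had broader patterns. Ddit4, an inhibitor of mTORC1 signalling, was highest in perivascular cells (85.8 and 74.2 CPM in RP and 377P) and blood endothelial cells (71.1 and 61.0 CPM), and lowest in monocytes or macrophages (7.81 and 6.81 CPM). Adm, which encodes the vasodilator peptide adrenomedullin, was highest in keratinocytes and fibroblasts: basal keratinocytes led in RP with 51.1 CPM ahead of fibroblasts with 50.3 CPM, and suprabasal keratinocytes led in 377P with 59.9 CPM ahead of fibroblasts with 59.8 CPM. The collagen prolyl 4-hydroxylase subunit P4ha2 was highest in fibroblasts, at 30.7 CPM in RP and 37.6 CPM in 377P, and its relative P4ha1 in lymphatic endothelial cells in RP (110 CPM) and fibroblasts in 377P (122 CPM). Ankrd37, an ankyrin repeat gene, was highest in perivascular cells, at 12.9 and 14.1 CPM in RP and 377P. Bnip3 and Bnip3l encode receptors for the removal of mitochondria. Bnip3 was highest in blood endothelial cells in RP (26.7 CPM) and Schwann cells in 377P (42.4 CPM), and so was Bnip3l, with 133 CPM in RP and 151 CPM in 377P. T or NK cells were second for Bnip3l in both libraries (121 and 139 CPM in RP and 377P) and lowest for Bnip3 (5.92 and 4.96 CPM), so that their ratio of Bnip3l to Bnip3 was 20.5 in RP (10.9 to 43.4) and 28.0 in 377P (20.5 to 39.2). Ero1l, an oxidase of protein folding, ranged from 25.6 CPM in B cells to 57.1 CPM in lymphatic endothelial cells in RP, and from 23.7 CPM in B cells to 63.9 CPM in neutrophils in 377P. Car9, the membrane carbonic anhydrase often used as a hypoxia marker, stayed near 0 everywhere and reached at most 2.28 CPM in RP and 1.95 CPM in 377P.

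The comparison of RP with 377P within a class asks how far the same kind of cell differed between the libraries. A gene was called past the fold at a ratio of 1.5 either way, with at least 20 UMIs in the class, as a description of these 2 libraries. In basal keratinocytes 1 of 35 genes was past it upward and 0 downward, against 12.8% and 4.67% of all 16865 genes measured there, or 17.5% either way. In suprabasal keratinocytes 2 of 33 were past it upward and 3 downward, against 13.3% and 8.28% of all genes (21.6% either way). In fibroblasts 1 of 34 lay past it each way, against 7.29% upward and 6.42% downward (13.7% either way). Perivascular cells had 1 of 33 upward and 2 downward, against 7.6% and 8.19% (15.8% either way), and blood endothelial cells 2 of 33 each way, against 8.19% upward and 8.56% downward (16.8% either way). T or NK cells had 2 of 30 upward and 0 downward, against 13.8% and 9.62% (23.4% either way). B cells had 1 of 29 upward and 3 downward, against 13.9% and 10.2% (24.2% either way). Monocytes or macrophages had 3 of 32 upward and 4 downward, against 14.6% and 7.29% (21.9% either way). Over the members with at least 20 UMIs, the share past the fold was near that of all genes in monocytes or macrophages and below it in the other 7 classes. Genes with few UMIs scatter more, and the picture was not the same among genes with at least 100. At that limit 1 of 35 members was past the fold in basal keratinocytes, against 10.2% of all genes, 5 of 30 in suprabasal keratinocytes, against 13.6%, and 1 of 33 in fibroblasts, against 6.18%. The counts were 2 of 28 in perivascular cells, against 6.14%, 2 of 27 in blood endothelial cells, against 7.71%, and 2 of 24 in T or NK cells, against 12.4%. B cells had 1 of 23, against 11%, and monocytes or macrophages 3 of 24, against 10.8%. The median log2 ratio of the measured members lay between -0.12 and 0.01 over the 8 classes, and that of all genes between -0.04 and 0.04.

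**Figure D3:**
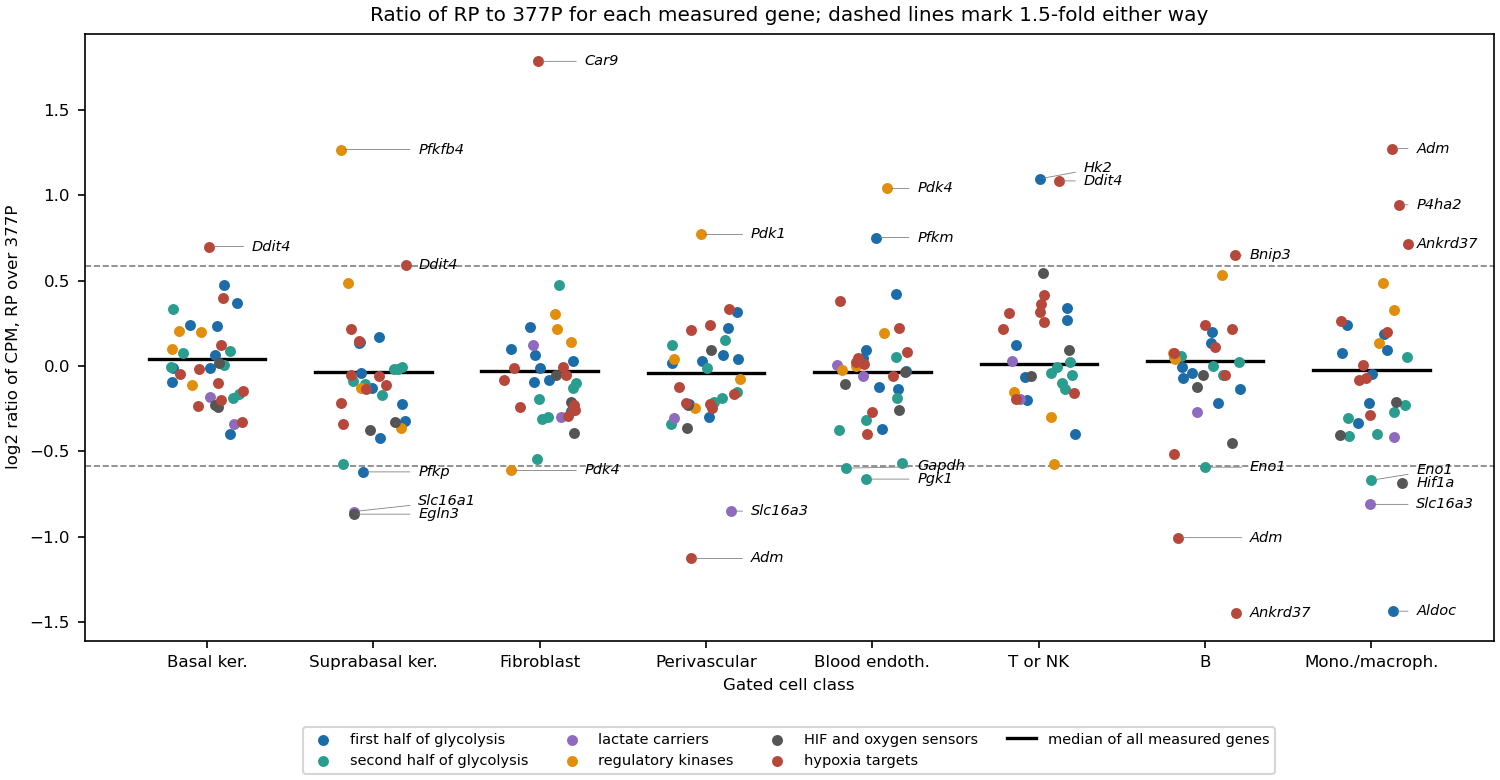
Log2 ratio of CPM, RP over 377P, for each of the 35 genes with at least 20 UMIs in the 8 compared classes, coloured by functional group, with a black bar at the median of all measured genes and dashed lines at 1.5-fold. Most genes lie between the dashed lines in every class, and the named ones are those outside.

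Most payoff enzymes were lower in RP than in 377P in blood endothelial cells. That direction was not particular to this class. Of the 8 compared classes, the log2 ratio was above 0 in 0 for Gapdh, 1 each for Pgam1, Eno1 and Pkm, 2 for Ldha and 3 for Pgk1. Eno2 went the other way, above 0 in 6, with too few UMIs in 2 of the 8. In blood endothelial cells Gapdh was at 350 CPM in RP and 530 CPM in 377P, a ratio of 0.661 (0.621 to 0.703), and Pgk1 at 80.1 CPM in RP and 127 CPM in 377P, a ratio of 0.632 (0.555 to 0.720). Pgam1, at 83.6 and 124 CPM in RP and 377P, lay just inside the fold with a ratio of 0.674 (0.592 to 0.768). Pkm, Eno1 and Ldha had ratios of 0.802, 0.770 and 0.878, each with an interval below 1. The median log2 ratio of the 7 payoff genes was -0.38, against 0.01 for the 8 measured preparatory genes and -0.04 for all genes. The preparatory enzymes spanned -0.37 to 0.75 on that scale, with Gpi1 the lowest. Some other genes of glucose use were lower in RP and some higher. Slc2a1, the glucose transporter GLUT1, was at 64.1 CPM in RP and 119 CPM in 377P (ratio 0.540, 0.469 to 0.621). Bpgm, the bisphosphoglycerate mutase, was at 34.2 and 72.8 CPM in RP and 377P (ratio 0.470, 0.390 to 0.567). Of 22 other glycolysis and pyruvate genes measured in this class, 11 had a log2 ratio above 0. Of the 22, 2 were past the fold upward and 3 downward. Their median log2 ratio was 0.01, and their range -1.09 to 3.61, so this list had no common direction.

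Unsupervised clusters made without the 35 genes gave the same comparison within sets of cells grouped in another way. Cells of both libraries were clustered together with no correction for library, and many clusters held nearly only 1 library. The cells of a shared cluster can therefore be a selected part of a library. The clusters were not cut from the gated classes, and some held more cells than the class. The gated blood endothelial class had 1358 RP and 518 377P cells. Cluster 15 held 1362 RP and 420 377P blood endothelial cells, and cluster 20 held 226 and 113. Gapdh had a ratio of 0.766 (0.714 to 0.823) in cluster 15 and 0.639 (0.560 to 0.728) in cluster 20. Pgk1 had ratios of 0.767 and 0.578 in clusters 15 and 20, and Pkm 0.859 and 0.711. Pgam1 had 0.739 in cluster 15 and 0.765 in cluster 20, where its interval included 1 (0.573 to 1.02). Ldha was lower in RP in cluster 15 (0.837, 0.762 to 0.921) and higher in cluster 20 (1.25, 1.03 to 1.53). Slc2a1 had ratios of 0.530 and 0.396, and Bpgm 0.635 and 0.275. In 1 alternative run, cells were thinned to 1000 UMIs, shallower cells were left out, and every kept cell weighed the same. The log2 ratio of Gapdh in the gated class was then -0.41, that of Bpgm -0.07, and that of Pgk1 turned to 0.10. What caused these changes was not tested. In the lymphatic endothelial cluster, with 311 RP and 152 377P cells, Gapdh had a ratio of 0.538 (0.472 to 0.612), Pgk1 0.578 (0.444 to 0.748), Ldha 0.619 (0.501 to 0.763) and Pkm 0.623 (0.514 to 0.754), while Slc2a1 had 1.04 (0.666 to 1.63). Slc2a1 stayed past 1.5-fold in every alternative run, with log2 ratios between -1.13 and -0.85.

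**Figure D4:**
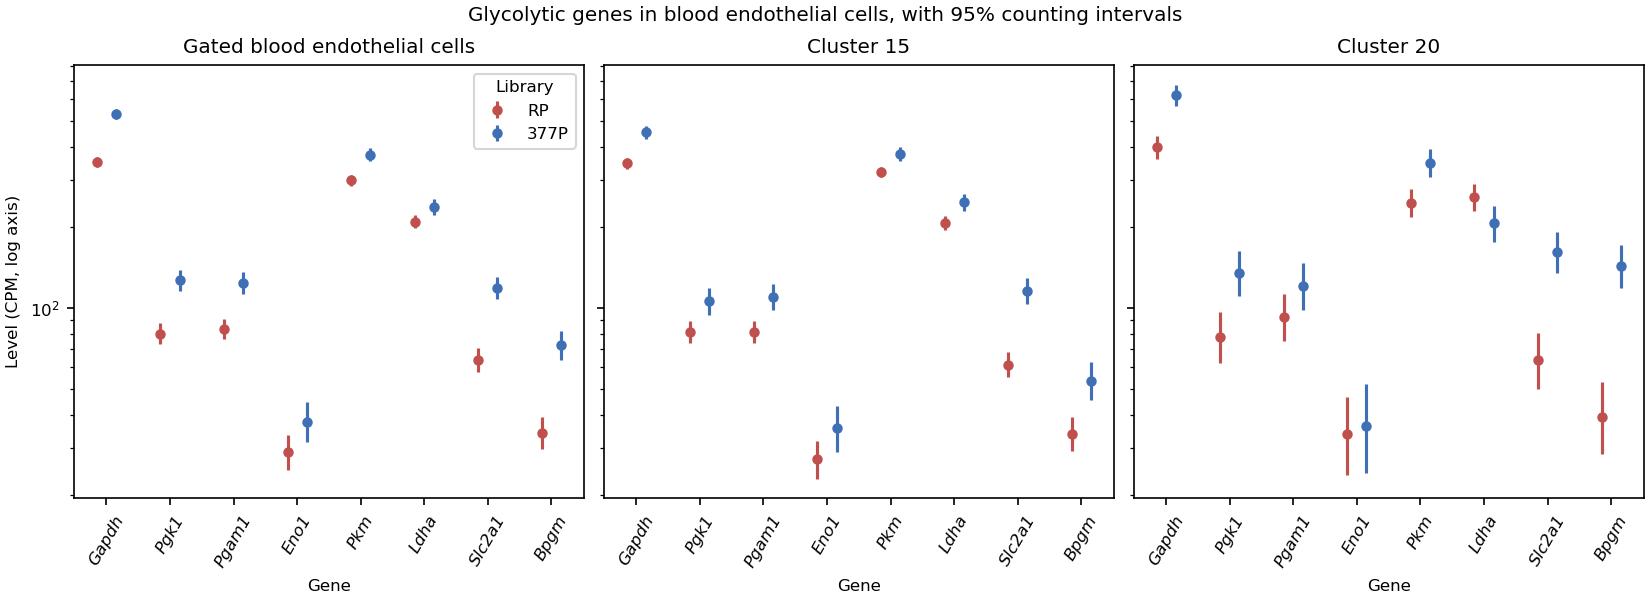
Levels (CPM, log axis) of payoff enzymes, Slc2a1 and Bpgm in gated blood endothelial cells and in clusters 15 and 20, with RP in red left of 377P in blue and bars for the 95% counting interval. The RP point lies below the 377P point for each gene and panel except Ldha in cluster 20.

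Pdk4 moved the other way in blood endothelial cells: it was at 10.98 CPM in RP (67 UMIs) and 5.34 CPM in 377P (19 UMIs), a ratio of 2.06 (1.22 to 3.62). The ratio was 2.14 (1.25 to 3.88) in cluster 15, cluster 20 had 2 UMIs in each library, and after thinning to 1000 UMIs the log2 ratio was -0.10. In fibroblasts Pdk4 was lower in RP, at 6.13 CPM against 9.36 CPM in 377P, a ratio of 0.655 (0.518 to 0.826), with 0.584 (0.397 to 0.856) in fibroblast cluster 7 and 0.496 (0.148 to 1.505) in cluster 18. Most fibroblasts lay in clusters of 1 library, with 2960 RP and 10 377P cells in cluster 8 and 4 RP and 2047 377P cells in cluster 9, so these within-cluster values cover a minority of the class. The ratio left the fold in some alternatives, with log2 values from -1.04 to -0.41. In fibroblasts 6 of the 7 payoff enzymes had log2 ratios below 0, Eno1 the lowest at -0.55, and Eno2 was at 0.48. Pfkm in blood endothelial cells (26 and 9 UMIs in RP and 377P) and Car9 in fibroblasts (18 and 5 UMIs) were also past the fold, on few counts.

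In monocytes or macrophages 7 of 32 measured members were past the fold, a share at the 21.9% of all genes there. Hif1a was at 187 CPM in RP and 301 CPM in 377P, a ratio of 0.622 (0.559 to 0.694), and Eno1 at 54.2 CPM in RP and 86.1 CPM in 377P, a ratio of 0.629 (0.513 to 0.772). Slc16a3 was at 16.4 CPM in RP and 28.7 CPM in 377P, a ratio of 0.570 (0.395 to 0.826). Adm was higher in RP, at 14.1 CPM (56 UMIs) against 5.84 CPM (12 UMIs) in 377P, a ratio of 2.42 (1.28 to 4.95). The median log2 ratio of the payoff enzymes was -0.31, and that of the hypoxia targets 0.20, against -0.03 for all genes. In the monocyte or macrophage cluster shared by both libraries, with 978 RP and 542 377P cells, the ratios were nearer to 1: 0.794 (0.727 to 0.868) for Hif1a, 0.797 (0.674 to 0.942) for Eno1, 0.787 (0.575 to 1.08) for Slc16a3 and 1.51 (0.887 to 2.62) for Adm. With that cluster in place of the gate, 2 members were past the fold instead of 7, where 19.6% of all genes were past it either way. The gated class had 700 RP and 295 377P cells, so the cluster also took in cells outside the gate. Aldoc, Ankrd37 and P4ha2 were past the fold in the gated class on 24, 25 and 33 UMIs over both libraries.

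T or NK cells had Hk2 at 65.1 CPM in RP and 30.5 CPM in 377P, a ratio of 2.14 (1.69 to 2.68). Ddit4 was at 34.3 CPM in RP and 16.2 CPM in 377P, a ratio of 2.12 (1.53 to 2.90). The Hk2 ratio stayed past 1.5-fold in every alternative run on the class, with log2 values from 1.03 to 1.42, and that of Ddit4 ranged from 0.55 to 1.10. The makeup of the class differed between the libraries: cluster 28 held 67 RP and 1450 377P cells. Within cluster 13 (469 and 305 cells of RP and 377P) Hk2 had a ratio of 1.10 (0.753 to 1.61), and within cluster 24 (170 and 160 cells) 1.08 (0.814 to 1.43). Hk2 differed far more between those clusters, at 37.9 and 34.5 CPM of RP and 377P in cluster 13 and 188 and 174 CPM in cluster 24. The ratio of Ddit4 was 1.25 (0.783 to 2.004) and 1.45 (0.867 to 2.45) in clusters 13 and 24. Other pathway genes named by the same ranking, the clock-linked receptor Rora and the MYC antagonist Mxi1, had ratios of 1.82 and 1.94 in the class, 0.441 and 0.742 in cluster 13, and 0.9994 and 1.23 in cluster 24. Other members were lower in RP within cluster 13: Hif1a had a ratio of 0.367 (0.331 to 0.406), Pkm 0.468 (0.408 to 0.537) and Gapdh 0.504 (0.459 to 0.555), and 10 of the 27 measured members were past the fold downward and 0 upward, where 33.3% of all genes were past it either way. In cluster 24 Hif1a had 0.879, Pkm 1.41 and Gapdh 0.959.

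**Figure D5:**
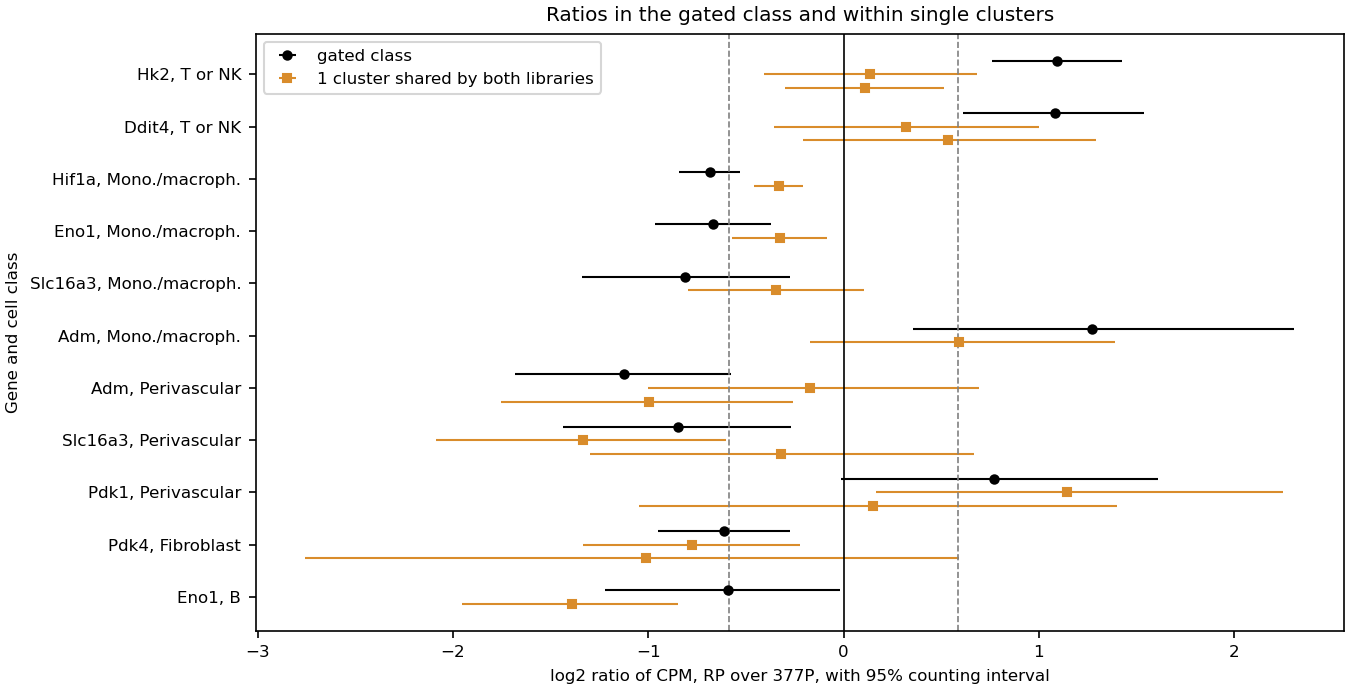
Log2 ratio of CPM, RP over 377P, of named genes in the gated class (black) and within each cluster that holds at least 100 cells of both libraries (orange, lower cluster number above), with bars for the 95% counting interval and dashed lines at 1.5-fold. The class ratio of Hk2 in T or NK cells lies past the fold while both cluster ratios lie near 0, and the macrophage ratios lie nearer to 0 in the cluster than in the class.

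In suprabasal keratinocytes Egln3 was at 21.01 CPM in RP and 38.3 CPM in 377P, a ratio of 0.548 (0.451 to 0.666). Slc16a1 was at 15.6 CPM in RP and 28.2 CPM in 377P, a ratio of 0.554 (0.441 to 0.695), and Pfkp at 71.5 CPM in RP and 110 CPM in 377P, a ratio of 0.651 (0.584 to 0.725). Slc16a1 and Pfkp stayed past 1.5-fold in every alternative run, and the log2 ratio of Egln3 ranged from -0.89 to -0.50. Higher in RP were Pfkfb4 (9.58 CPM against 3.98 CPM in 377P, ratio 2.41, 1.55 to 3.82) and Ddit4 (14.5 CPM against 9.61 CPM in 377P, ratio 1.51, 1.11 to 2.06), both under 20% of their highest class. Epas1, which encodes the HIF-2 alpha subunit and is no member of the 35, was at 153 CPM in RP and 41.5 CPM in 377P, a ratio of 3.69 (3.25 to 4.20). Basal keratinocytes had Ddit4 past the fold, at 18.5 CPM in RP and 11.4 CPM in 377P, a ratio of 1.62 (1.44 to 1.83), and the log2 value ranged from 0.58 to 0.84. No keratinocyte cluster held 100 cells of both libraries: 1809 RP cells and 10 377P cells made up cluster 3, the largest of RP, and 2 RP cells and 2283 377P cells made up cluster 31, the largest of 377P, so the keratinocyte ratios have no value within a cluster.

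In perivascular cells Adm was at 11.6 CPM in RP (50 UMIs) and 25.2 CPM in 377P (68 UMIs), a ratio of 0.458 (0.311 to 0.670). It was 0.889 (0.499 to 1.62) in perivascular cluster 0 and 0.502 (0.297 to 0.836) in cluster 1. Slc16a3 was at 11.3 CPM in RP and 20.4 CPM in 377P, a ratio of 0.555 (0.370 to 0.831), with 0.396 and 0.802 in clusters 0 and 1. Pdk1 was at 12.02 CPM in RP (52 UMIs) and 7.05 CPM in 377P (19 UMIs), a ratio of 1.71 whose interval reached below 1 (0.991 to 3.05). The ratios of all 3 stayed past 1.5-fold in every alternative run on the class, but Pdk1 is not counted where 100 UMIs are required. In B cells Eno1 was at 26.6 CPM in RP (27 UMIs) and 40.04 CPM in 377P (284 UMIs), a ratio of 0.663 (0.430 to 0.986), and the other members past the fold, Adm, Ankrd37 and Bnip3, had 5, 2 and 11 UMIs in RP and intervals that included 1. B cluster 16 held 562 RP and 108 377P cells, where the gated class had 338 and 2186. Eno1 had a ratio of 0.381 (0.258 to 0.555) in that cluster, and the members' median log2 ratio was -0.60, against 0.01 for all genes. The other large B cluster held 0 RP and 2982 377P cells.

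Other genes of both pathways were read from lists that hold none of the 35. Of the other glycolysis and pyruvate genes measured in blood endothelial cells, 2 of 22 lay past the fold upward and 3 downward, against 8.19% and 8.56% of all genes. Their median was 0.01 on the log2 scale. In monocytes or macrophages 4 of 21 were past it upward and 3 downward (median -0.09), against 14.6% and 7.29% of all genes. In fibroblasts 2 of 27 were past it each way (median -0.04), against 7.29% upward and 6.42% downward. In keratinocytes the other glycolysis genes past the fold were all higher in RP, 5 of 27 in the basal class and 4 of 22 in the suprabasal class, against 12.8% and 13.3% of all genes, with medians of 0.00 and -0.03. The remaining counts were 1 of 23 upward and 3 downward in perivascular cells, against 7.6% and 8.19% of all genes. T or NK cells had 1 of 21 and 3, against 13.8% and 9.62%, and B cells 3 of 22 and 2, against 13.9% and 10.2%. Of the other HIF pathway and hypoxia genes, 8 of 29 in T or NK cells and 7 of 29 in B cells were past the fold upward, against 13.8% and 13.9% of all genes in those classes, with 1 and 0 downward. In the remaining 6 classes between 1 and 5 of them were past it upward and at most 3 downward. Of all genes in those classes, 7.29% to 14.6% were past it upward and 4.67% to 8.56% downward. Immediate early and heat shock genes, which respond to tissue dissociation, had a median log2 ratio of 0.21 in basal and 0.32 in suprabasal keratinocytes, 0.21 in T or NK cells, 0.19 in blood endothelial cells, 0.16 in B cells, 0.05 in monocytes or macrophages, 0.01 in fibroblasts and -0.07 in perivascular cells. Their part in the member ratios was not tested.

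Some counts rest on the annotation. Aldoa is listed under 2 identifiers, and the protein-coding one was used, with 24307 UMIs in RP and 21524 in 377P, while the other had 14 and 8. Eno1b is a near-identical copy of Eno1 that can share its reads. With both copies summed, the log2 ratio of Eno1 was -0.67 in monocytes or macrophages and -0.55 in B cells, where the ratio was then no longer past 1.5-fold. Of the genes that the results turn on, the GENCODE annotation of GRCm38 places the protein-coding genes Ndrg1 on the minus strand at chr15:66929318-66969640, Slc16a3 on the plus strand at chr11:120948480-120960868, Eno2 on the minus strand at chr6:124760053-124769673, Hif1a on the plus strand at chr12:73901375-73947530 and Gapdh on the minus strand at chr6:125161715-125166467.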

How the data were processed

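The deposited matrices hold raw UMI counts per gene and barcode from the 10x Chromium 3' v3 kit. They were written by Cell Ranger 7.0.1 per the file headers, and Cell Ranger, STAR and mm10 are named in the submitters' processing notes. Annotation release and intron handling were not given in the sources used here. The totals were 120909095 UMIs over 18112 barcodes in RP and 127094166 over 15466 in 377P, with medians of 4144 and 5288 per barcode.

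Barcodes with under 200 genes or over 20% of UMIs from mitochondrial genes were dropped, which left 17290 in RP and 15351 in 377P. Doublets were called with Scrublet (Scanpy 1.11.5, 12% expected), which marked 569 in RP (3.29%) and 836 in 377P (5.45%), which were removed. A cell entered a class with UMIs of at least 3 of its markers and a marker share over a class limit, set after the distributions were seen. Cells in no class (1800 in RP, 2059 in 377P) or in 2 lineages (788 and 361) were left out. Counts were summed per class and scaled to CPM. Intervals are exact Poisson, or for ratios exact conditional binomial, at 95% (SciPy 1.17.1), and PCR and capture beyond counting are not in them. Clusters used the cells of both libraries together, with no correction for library. They were made with 3000 variable genes without the 35, 40 components, 20 neighbours and Leiden resolution 1.0 (igraph 0.11.9). The scripts' folds were tested on simulated counts.

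Members, lists and tests were chosen with earlier results of these data known. Named genes were up to 3 members each way per class, ranked by the bound of the interval nearest to 1, with at least 50 UMIs and 20% of their highest class, and 3 other pathway genes each way, of which 1 is not reported here. Members past the fold outside this rule, and genes named only within a cluster, were chosen after their values were seen. Of the alternatives, the comparison within clusters and the levels of classes found in 1 library were added after seeing the data. Promoter windows are from RefSeq.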

Additional observations from a re-analysis of the deposited data

Results flagged for a closer look

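Genes were marked here where the ratio of RP to 377P was past 1.5-fold in opposite directions in different classes. The difference between the classes was not tested, and each class has 1 library a side. Pdk4 had a log2 ratio of -0.61 in fibroblasts and 1.04 in blood endothelial cells. Adm had -1.13 in perivascular cells and -1.0045 in B cells, against 1.27 in monocytes or macrophages. Ankrd37 had -1.45 in B cells and 0.71 in monocytes or macrophages, from 2 RP UMIs in the B cells and 6 377P UMIs in the monocytes or macrophages.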

How the results depend on the processing

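No paired analysis was possible because each title has 1 library, and for the same reason no library could be left out. The 24 named ratios were chosen because they were past 1.5-fold, and most alternatives use nearly the same cells. A kept direction was therefore likely beforehand and is no test of these ratios. For them, the 8 alternatives that recompute a ratio gave 192 values, and the direction was kept in 190. The 2 that turned came from thinning to 1000 UMIs, in blood endothelial cells: Pdk4 to a log2 ratio of -0.10 and Pgk1 to 0.10. Thinning left out 1974 cells of RP and 839 of 377P as too shallow. The cause of these changes was not tested. The counts of members past the fold depended on settings more. Among these settings the share of all genes was computed only at the limit of 100 UMIs, so the counts are no result about the members. With Leiden clusters in place of the gate, the counts became 5 in T or NK cells, 3 in basal and 9 in suprabasal keratinocytes and 2 in monocytes or macrophages. With doublets kept, T or NK cells had 5. With a mean over cells, T or NK cells had 4, basal keratinocytes 0, fibroblasts 1 and perivascular cells 5. Thinned, T or NK cells had 4, basal keratinocytes 2, fibroblasts 4 and monocytes or macrophages 3. With no minimum of UMIs, B cells had 7, T or NK cells 6 and perivascular cells 5. With at least 100 UMIs, B cells had 1, blood endothelial cells 2, fibroblasts 1 and monocytes or macrophages 3. At a fold of 2, B cells, monocytes or macrophages had 2 each, blood endothelial cells, fibroblasts, perivascular cells and suprabasal keratinocytes 1 each, and basal keratinocytes 0. With the median ratio of all genes set to 1, fibroblasts had 1, upward, and none downward. Counts that moved by no more than 1.5 times are not listed. The number of genes with the same highest class, 20, stayed within that limit. Classes under 200 cells in a library, neutrophils and lymphatic endothelial cells among them, gave levels as classes, with no class ratio.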

Other observations

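Classes with at least 50 cells in 1 library only could not be compared, and their levels, an addition made after seeing the data, are given against the highest of the 12 classes of the same library. In 377P, 65 cells of the neuronal class had Bnip3 at 166 CPM (134 to 204), 3.92 times the highest of the 12 classes. Aldoc was at 39.7 CPM there (24.9 to 60.2), 4.68 times the highest, and the hydroxylase gene Egln1 at 210 CPM (173 to 251), 1.88 times. Gapdh was at 1001 CPM (919 to 1088) and Eno1 at 123 CPM (95.4 to 156) in these cells, while Ldha was at 57.8 CPM (39.5 to 81.6), 0.174 times its highest class. In RP, 54 cells of the chondrocyte class had Hif1a at 538 CPM (468 to 616), Hk1 at 167 CPM (129 to 212) and P4ha2 at 58.9 CPM (37.4 to 88.4), 1.13, 1.35 and 1.92 times the highest of the 12 classes. In RP, 86 cells of the cornifying keratinocyte class had Egln3 at 59.0 CPM (44.5 to 76.6), 1.09 times the highest, and Hif1a at 60.01 CPM (45.5 to 77.8), 0.126 times the highest.

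Stc2, a secreted glycoprotein gene on the list of other hypoxia genes, was singled out after its values were seen. It was past the fold upward in RP in all 8 compared classes, with log2 ratios from 1.02 in perivascular cells to 3.83 in T or NK cells. Its level in these classes was at most 12.6% of that in its highest class of RP. What part RNA from other cells had in this was not tested.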
